A study of Xenopus laevis with 6 samples.

Results

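The transcription factor genes mecom.L, tfap2b.L, pou3f4.L and gata3.S were followed in pronephric explants of Xenopus laevis with and without bhh treatment. They are 4 of 7531 distinct genes that the array's probe sets name singly, and were read by 5 of 15491 probe sets: 2 for pou3f4.L and 1 for each of the others. The genes were selected on this same comparison, since 3 of them had been seen to be much lower with bhh and gata3.S had not, so their treated and untreated signals are given as a description and without a test. No numerical threshold was part of the choice. The explants, blocks of about 70 × 100 × 70 µm, were cut at stage 24 from both flanks of embryos, around the rudiment of the larval kidney. One group of 3 pools was untreated. The other group of 3 pools was bhh treated, where bhh is banded hedgehog, a secreted hedgehog ligand whose gene is now called ihh. Each pool held RNA of 300 explants and was read on 1 Affymetrix array, numbered 1 to 3 within its group. No genotype, mock treatment, dose or way of giving bhh is stated in the labels, so the procedure of treatment and bhh itself cannot be told apart.

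The pronephros is the first kidney of the frog embryo. Its nephron runs from a proximal tubule through intermediate and distal tubule into a duct, and transcription factors that are active in only some of these segments help to set their identity. mecom, earlier called evi1, encodes a zinc finger factor that marks the distal tubule and duct of the Xenopus pronephros. tfap2b encodes an AP-2 factor, known in the mouse for the distal nephron and in vertebrates for neural crest. pou3f4 encodes a POU domain factor of the developing kidney, brain and ear, and gata3 a GATA factor that in the mouse is needed for the nephric duct.

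Signals are MAS5 intensities on a linear scale, in arbitrary units. The control level used as background was a signal of 37.6, the 95th percentile over 44 control probe sets for bacterial genes and tags. The trimmed mean was 500.1 on every array, with medians from 148.7 to 169.2. The probe set of the bhh gene, ihh.S, read 14.3 to 36.0 on the untreated and 2824 to 3121 on the treated arrays. The pools labelled bhh treated thus held more RNA that this probe set reads. Whether that RNA was supplied or made by the explants was not tested. Of the kidney markers, lhx1.L read 374 to 488 on the untreated arrays, and pax8.L, at 53.9 to 78.1, was dim but above the control level. The labels do not say whether the pools came from separate batches of embryos, so p-values measure only the spread between these arrays, which may be technical. The number of arrays, 3 per group, limits the precision of every value. The array held no probe set named singly for the partner genes mecom.S, tfap2b.S, pou3f4.S and gata3.L of the duplicated genome, and whether the probe sets also bind the partners' RNA was not tested.

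The mecom.L signal was high in untreated and at background level in treated explants. It was 306, 484 and 371 on untreated arrays 1, 2 and 3, against 37.3, 20.2 and 29.7 on their treated counterparts. All treated arrays were thus under the control level of 37.6, and the groups were far apart: the lowest untreated signal was 8.21 times the highest treated one. The means were 387 ± 90.0 and 29.1 ± 8.57 (SD, n = 3 each). Because the treated signals lie under the control level, the size of the difference has only a bound. With these signals set to the control level, mecom.L was 10.1-fold lower. This bound compares group means and leaves out the spread between arrays. The difference of mean log2 signals as measured was -3.75 ± 0.27 (SE). In RNA from whole explants, fewer cells with a transcript and less of it per cell cannot be told apart.

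The tfap2b.L signal was lower in treated explants but stayed measurable there. It was 407, 550 and 665 on untreated arrays 1, 2 and 3, against 85.7, 79.5 and 97.7 on their treated counterparts. The groups did not overlap, and all 3 treated arrays were above the control level, so that a residual tfap2b.L signal was present in every treated pool. The means were 540 ± 129 and 87.6 ± 9.25 (SD, n = 3 each), a log2 difference of -2.60 ± 0.21 (SE), or 6.07-fold.

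Both probe sets of pou3f4.L were lower in treated explants, by unequal amounts. The brighter one read 642, 485 and 658 on untreated arrays 1, 2 and 3, against 56.6, 56.0 and 42.3 on their treated counterparts. Its means were 595 ± 95.5 and 51.6 ± 8.09 (SD, n = 3 each), a log2 difference of -3.52 ± 0.20 (SE), or 11.5-fold. The dimmer one gave 303, 188 and 196 on untreated arrays 1, 2 and 3. On treated arrays 1, 2 and 3 it read 73.4, 51.5 and 65.6. Its means were 229 ± 64.2 and 63.5 ± 11.1 (SD, n = 3 each), and its log2 difference was -1.83 ± 0.25 (SE), or 3.56-fold. In both probe sets every treated array was below every untreated array and above the control level. The probe sets share the sign and differ in size, so no single fold is given for pou3f4.L.

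The gata3.S signal did not separate the groups. It was 226, 340 and 460 on untreated arrays 1, 2 and 3, against 235, 450 and 444 on their treated counterparts. The groups overlapped throughout, and every array was well over the control level. The means were 342 ± 117 and 376 ± 123 (SD, n = 3 each), a log2 difference of 0.14 ± 0.29 (SE) with a 95% interval of -0.51 to 0.79. Leaving out single arrays moved the difference between -0.13 and 0.45. It was below 0 without untreated array 1 (-0.13), treated array 2 (-0.02) or treated array 3 (-0.01), so no direction is given for gata3.S.

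**Figure D1:**
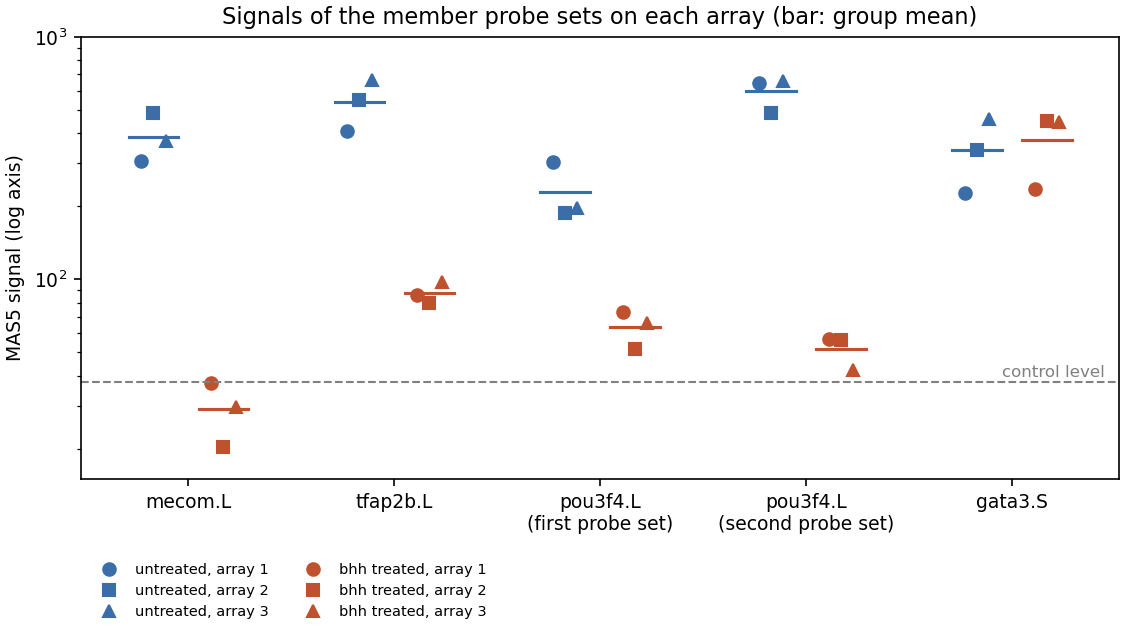
MAS5 signal on a log axis of the 5 probe sets on each of the 6 arrays, with untreated arrays in blue and bhh-treated arrays in red, 1 symbol per replicate number, a bar at each group's mean, and a dashed line at the control level of 37.6. The treated points of mecom.L lie under the line and those of tfap2b.L and pou3f4.L (first, the dimmer probe set, and second, the brighter) above it, while the groups of gata3.S overlap.

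All 5 probe sets were bright enough for the fit over the whole array. In 4 of the 5, every treated array was below every untreated array. The same held for 9.01% of the 11618 probe sets fitted. Since this comparison chose the genes, nothing is read from their count.

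Arrays with the same replicate number, mainly those numbered 1, tended to deviate together over the array as a whole. The differences were therefore also taken within each number. For mecom.L, the log2 differences within numbers 1, 2 and 3 were -3.04, -4.58 and -3.64. For tfap2b.L the log2 differences were -2.25, -2.79 and -2.77. For pou3f4.L they were -3.50, -3.11 and -3.96 at the brighter probe set and -2.04, -1.87 and -1.58 at the dimmer. For these 3 genes the sign within each number follows from groups that do not overlap, so only the sizes are described here. For gata3.S the values were 0.06, 0.40 and -0.05, with both signs.

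**Figure D2:**
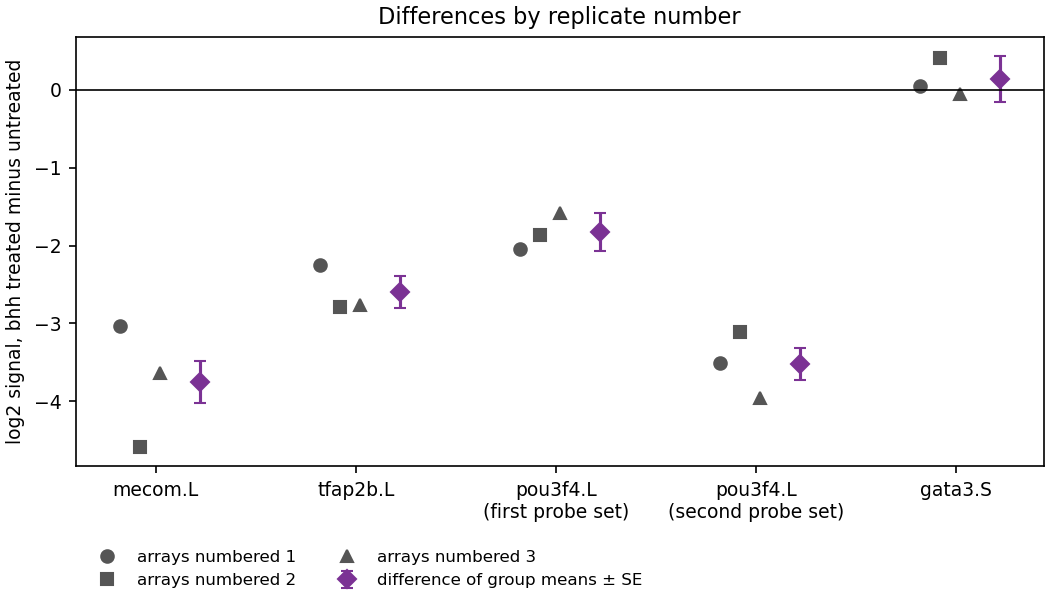
Log2 signal of bhh-treated minus untreated arrays for the 5 probe sets, within each replicate number (grey symbols) and as the difference of group means with its SE (purple diamonds). All grey symbols of mecom.L, tfap2b.L and pou3f4.L are below -1.5, and those of gata3.S lie between -0.05 and 0.40.

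The spread of gata3.S within groups went in part with the replicate number. Its lowest array was number 1 in both groups (226 and 235), while numbers 2 and 3 changed order (340 and 460 untreated, 450 and 444 treated). With the replicate number as a block the SE of its log2 difference was 0.14 in place of 0.29. Number 1 was lowest in both groups for 26.4% of all fitted probe sets. The dimmer pou3f4.L probe set showed the opposite order, with number 1 highest in both groups (303 and 73.4), as did 19.8% of all. Arrays numbered 1 also had the highest hybridization control signals, with medians of 2257 and 1922 against 945 to 1558 on the others, and the highest GAPDH 3' to 5' signal ratios, 4.10 and 4.42 against 3.01 to 3.67. The part of these measures in the spread of gata3.S was not tested. For mecom.L the block changed the SE little, from 0.27 to 0.26, and for tfap2b.L from 0.21 to 0.17. Relative to the mean, the untreated arrays varied by 23.3% for mecom.L, 23.9% for tfap2b.L, 16.1% and 28.0% for the brighter and dimmer pou3f4.L probe sets and 34.3% for gata3.S (SD as a percentage of the mean).

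The genes whose profile over the 6 arrays was most like that of each member were found by the root mean square distance between log2 signals, each centred on its untreated mean. This measure uses the same comparison and is a description. Nearest to mecom.L were pou3f4.L (distance 0.473), fxyd2.S (0.596), the gene of a regulatory sodium pump subunit, and lhx1.L (0.683), whose homeobox factor the kidney needs to form. The treated signals of mecom.L and fxyd2.S are under the control level on all arrays and those of lhx1.L on 2 of 3, so the distances that involve these genes rest in part on background signals. Nearest to pou3f4.L were mecom.L (0.473), lhx1.L (0.549) and tfap2b.L (0.736). Among all single-gene probe sets fitted, mecom.L and the brighter probe set of pou3f4.L were thus each other's nearest. The distance takes in the size of the drop, on which these genes were selected. Within the untreated group the 2 did not run together: array 2 was the highest for mecom.L (484) and the lowest for pou3f4.L (485).

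The tfap2b.L profile was nearest to dll1.L (0.526), which encodes a Notch ligand, aldh1a1.L (0.657), which encodes a retinaldehyde dehydrogenase, and the dimmer probe set of pou3f4.L (0.696). For aldh1a1.L arrays 1, 2 and 3 read 121, 148 and 143 without bhh and 29.4, 49.9 and 44.4 with it. Nearest to gata3.S were alas1.L (0.0367), the gene of the first enzyme of haem synthesis, ubtf.L (0.0666), which encodes a factor for ribosomal RNA transcription, and pdf.S (0.0928). Chosen for likeness to gata3.S over these arrays, each was also lowest on array 1 in both groups, so nothing is read from this. In alas1.L, for example, arrays 1, 2 and 3 read 103, 161 and 220 untreated and 106, 210 and 201 treated. The distance of gata3.S from the other members was 2.82 to mecom.L, 1.96 to tfap2b.L, and 2.64 and 1.54 to the brighter and dimmer probe sets of pou3f4.L.

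**Figure D3:**
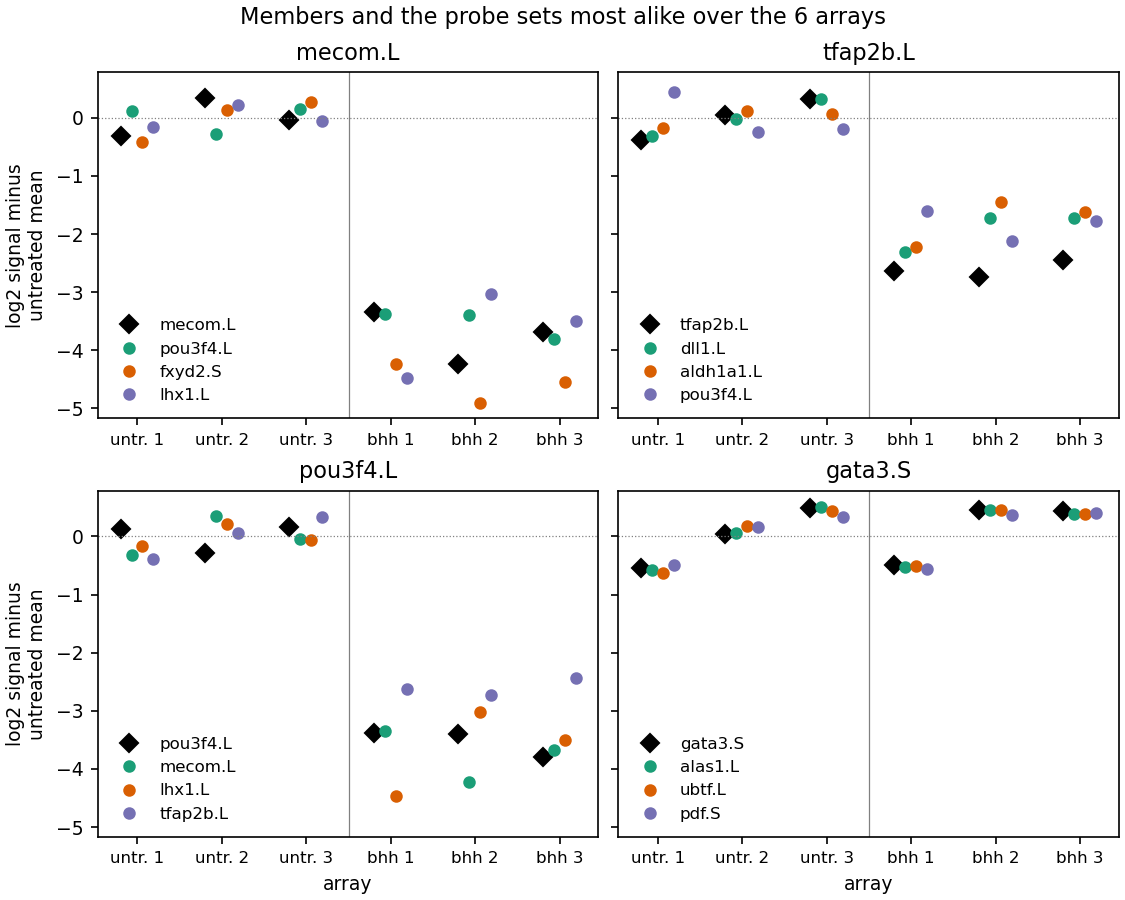
Log2 signal minus the untreated mean on each of the 6 arrays for the brightest probe set of each member (black diamonds) and its 3 most alike probe sets (coloured circles), 1 panel per member. All treated points of the mecom.L panel, which holds fxyd2.S and lhx1.L, and of the pou3f4.L panel, which holds lhx1.L, lie far below 0. In the gata3.S panel array 1 is the lowest in both groups.

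The calls among other regulators of tubule and duct went in both directions. A list of transcription factors and signalling genes of the tubule and duct programme, without the 4 members, had 34 fitted genes. It also holds early kidney genes such as osr1. Of the 34, 2 fell, 2 rose and 30 did not pass limma's test (Benjamini-Hochberg adjustment over all 11618 probe sets, threshold 0.05). Over all probe sets 1.38% passed, 0.637% lower and 0.74% higher. The list's median log2 difference was -0.17, with 23 of 34 below 0, against 0.0027 and 49.5% over all fitted probe sets. This list, like those below, was drawn up with earlier results of these data known, so the comparison with all probe sets is a description. Those that fell were lhx1.L and dll1.L. The lhx1.L signal was 374, 488 and 401 without and 18.8, 51.3 and 36.9 with bhh on arrays 1, 2 and 3, so that only treated array 2 was above the control level. Its log2 difference, which rests in part on background signals, was -3.67 ± 0.33 (SE, limma adjusted p = 0.00031).

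The dll1.L signal went from 387, 474 and 605 to 97.6, 145 and 146, a log2 difference of -1.91 ± 0.22 (SE, limma adjusted p = 0.0015), and remained above the control level on each treated array. Those that rose were mycn.S, a growth gene of the Myc family, and osr1.L, an early kidney and lateral mesoderm factor. The log2 difference of mycn.S was 1.11 ± 0.16 (SE, limma adjusted p = 0.0054) and that of osr1.L 0.99 ± 0.18 (SE, limma adjusted p = 0.025). Leaving out untreated array 2 (limma adjusted p = 0.14), untreated array 3 (0.11), treated array 2 (0.18) or treated array 3 (0.066) ended the osr1.L call. With the replicate block 9 genes of the list passed, 4 higher and 5 lower, while over all fitted probe sets the share past the test also went up, to 6.31% (3.65% higher and 2.66% lower). The added genes were mycn.L and wnt11b.L, a Wnt ligand gene, which were higher, and cxcr4.S, a chemokine receptor gene, hey1.S, a Notch target gene, and foxi1.L, a forkhead factor gene of ion-transporting cells, which were lower. Their unblocked log2 differences were 0.47, 0.64, -0.52, -0.54 and -0.41.

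Among further kidney factors, irx1.L (-0.47 ± 0.25) and irx2.L (-0.45 ± 0.20), Iroquois factor genes of the intermediate tubule, and pax8.L (-0.33 ± 0.27) did not pass. The brightest probe set of pax2.L did not pass either (-0.55 ± 0.33), while another had a log2 difference of -1.58 and fell (SE 0.31, limma adjusted p = 0.035). A further fitted one did not pass (-1.10 ± 0.28, limma adjusted p = 0.11), though its groups did not overlap. Both of these last probe sets were above the control level on only 1 of 3 treated arrays, so their differences rest in part on background signals. The other pax2.L probe sets were too dim for the fit. With any probe set of a gene counted, 3 genes of the list fell and 2 rose. Others that did not pass were above 0, among them emx2.L (0.24 ± 0.22) and tfcp2l1.L (0.14 ± 0.14). In the whole list 23 genes were below 0 and 11 above. The genes named in this paragraph and foxi1.L lie outside the rule for naming genes, and were chosen after their values were seen.

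Effector genes of distal tubule and duct cells mostly did not pass the test. Of 28 fitted transporter, junction and other effector genes, fxyd2.S alone fell, 0 rose and 27 did not pass the limma test, with a median log2 difference of -0.064. The unadjusted p was under 0.05 for 3 higher and 3 lower genes. Some genes of this list also stand in the list of surface ectoderm markers given below. Which cells of the explants gave the effector signals was not tested. Untreated arrays 1, 2 and 3 read 463, 678 and 739 for fxyd2.S, and the treated ones 32.5, 20.6 and 26.3. Like mecom.L it was under the control level on every treated array, so that its fold has only a bound. With the treated arrays set to the control level, fxyd2.S was 16.3-fold lower, again without the spread between arrays. Its limma adjusted p, on the signals as measured, was 6.0e-06. Next in p were scnn1b.S, a subunit of the epithelial sodium channel (-0.70 ± 0.19, limma adjusted p = 0.14), and sgk1.L, a kinase that acts on that channel (0.56 ± 0.16, limma adjusted p = 0.16). With the block 4 passed, scnn1b.S and fxyd2.S lower and sgk1.L and the keratin gene krt18.1.L higher.

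The relatives of the members by family gave no lower call. The array held 23 genes of the AP-2, POU, GATA and PRDM families, with .L and .S partners counted separately. Of these, 14 could be fitted, of which 1 rose, 0 fell and 13 did not pass the limma test. The unadjusted p was under 0.05 for 5 genes, all higher: gata5.S, gata5.L, gata6.L, gata6.S and gata2.L. The gata5 and gata6 genes also stand in the list of lateral plate markers given below. The share of all fitted probe sets with such a p was not taken, so nothing is read from these counts, here or in the other lists. The median log2 difference was 0.36, with 12 of 14 above 0, against a median of 0.0027 over all fitted probe sets. The closest relative of tfap2b on the array, tfap2a.L, a factor of epidermis and neural crest, read 811, 804 and 593 without and 834, 781 and 746 with bhh on arrays 1, 2 and 3. Its groups overlapped, and its log2 difference was 0.11 ± 0.15 (SE, limma adjusted p = 0.83). Of the other POU genes, pou2f1.S (0.28 ± 0.20), pou5f3.1.L (0.42 ± 0.28) and pou5f3.2.L (0.05 ± 0.25) did not pass. The pou3f relatives of pou3f4 could not be compared: the probe sets of pou3f1.L, pou3f2.S and pou3f3.S were too dim for the fit. On the treated arrays the brighter pou3f3.S probe set read 36.5, 30.1 and 25.5, and on the untreated ones 67.7, 36.2 and 39.6.

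Among the GATA factors, gata5.S, known in heart and gut, rose from 107, 126 and 95.5 to 286, 255 and 289 on arrays 1, 2 and 3. This was a log2 difference of 1.35 ± 0.18 (SE, limma adjusted p = 0.0038), and the groups did not overlap. Its partner gata5.L (0.69 ± 0.15, limma adjusted p = 0.061), gata6.L (0.56 ± 0.14, 0.11) and gata6.S (0.82 ± 0.25, 0.19) did not pass here and passed with the replicate block (blocked adjusted p = 0.0056, 0.012 and 0.026). The blood and ectoderm factor gata2.L, a close relative of gata3, had 0.41 ± 0.14 (limma adjusted p = 0.27), and gata4.L 0.24 ± 0.20 (0.70). Of the PRDM genes, to which mecom belongs, prdm1.S (0.33 ± 0.27), prdm2.S (-0.39 ± 0.20) and prdm4.L (-0.20 ± 0.14) did not pass. Another fitted probe set of prdm4.L had the opposite sign (0.29 ± 0.18, limma adjusted p = 0.57), so no direction is given for this gene.

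**Figure D4:**
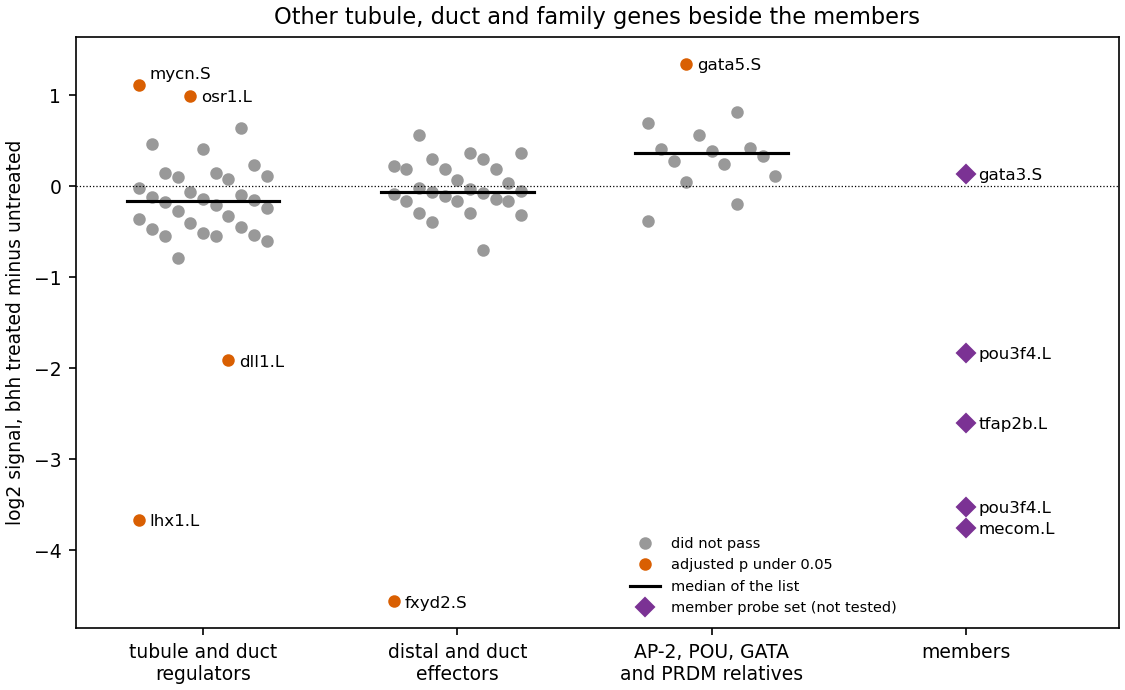
Log2 signal of bhh-treated minus untreated explants for each fitted gene of the 3 lists (circles, orange where the limma adjusted p is under 0.05, with the list median as a bar) and for the member probe sets (purple diamonds, not tested). Of the genes past the test, lhx1.L and dll1.L lie at -3.67 and -1.91 and fxyd2.S lowest (treated signals of fxyd2.S and mecom.L are under the control level, so the place of these 2 has only a bound), while those that did not pass lie between -1 and 1.

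Some members are known outside the kidney, and markers of neighbouring tissues were read on the same arrays. Each summed signal is over all genes of a list that the array holds, at their brightest probe sets, so that bright genes weigh most. Of 15 fitted neural crest marker genes 0 passed the limma test (unadjusted p under 0.05 in 5 higher and 1 lower), and the summed signal of the list was 3323 to 3825 on untreated and 4323 to 4543 on treated arrays. With the replicate block 4 of them passed, all higher, and without treated array 1 there was 1. Of 28 neural and otic marker genes on the array, 11 were under the control level on every array and 9 could be fitted. Of these 0 passed the limma test (unadjusted p under 0.05 in 1 higher and 1 lower), and with the replicate block 1 was lower. The summed signal of the 28 was 4940 to 5938 untreated and 4214 to 5423 treated.

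Of 21 fitted surface ectoderm markers 1 rose, has1.S, which encodes a hyaluronan synthase, and the summed signals overlapped (122700 to 160900 untreated, 105900 to 139100 treated). Of 17 somite markers 5 fell and the summed signal was lower (102300 to 116100 against 69710 to 88380). Of the 17, 14 were below 0 and 3 above. Among those above 0, myod1.S (0.79 ± 0.17) and pax3.L (0.77 ± 0.19) did not pass here and passed with the replicate block (blocked adjusted p = 0.0059 and 0.0037). The partner of pax3.L, pax3.S, was among the 5 that fell (-1.70 ± 0.25, limma adjusted p = 0.007). It was above the control level on 2 of 3 treated arrays. Of 11 lateral plate markers 3 rose and the summed signal was higher (3970 to 4120 against 6647 to 6730). In 12 blood and vessel markers fli1.S fell, with sums of 2991 to 3412 and 3567 to 3907, and in 11 endoderm markers gata5.S, which the lateral plate list also holds, rose, with sums of 5424 to 5987 and 6279 to 7037. With the replicate block the calls were 2 higher and 1 lower for surface ectoderm, 2 and 10 for somite, 7 and 1 for lateral plate, 3 and 1 for blood and vessel, and 4 and 1 for endoderm. The 4 higher endoderm calls were gata5.S, gata5.L, gata6.L and gata6.S, which are also among the 7 of the lateral plate list. Over all fitted probe sets 1.38% passed without the block and 6.31% with it. With 1 array left out the somite calls were 1 (without untreated array 2 or 3), 2 (without treated array 3), 3 (without treated array 2), 5 (without untreated array 1) or 8 (without treated array 1). The 5 and the 8 each held 1 higher call, and all others were lower. Without untreated array 2 or treated array 2 or 3 the surface ectoderm and fli1.S calls were lost, and that for surface ectoderm also without untreated array 3. Without treated array 1 there were 2 blood and vessel calls, and without untreated array 1 there were 2 endoderm calls. The part of these differences between tissues in the signals of mecom.L, tfap2b.L, pou3f4.L and gata3.S was not tested.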

How the data were processed

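RNA of 3 untreated and 3 bhh-treated pools was amplified into biotin-labelled cRNA from 1 µg of total RNA, per the labels' protocols. The deposited intensity values, 1 per probe set and array, come from MAS5, as the submitters' processing notes state; no version or setting is given in the sources used here. Mismatch probes are subtracted and arrays scaled in MAS5, so dim signals are noisy.

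Of 15611 probe sets, 120 controls were left out. The platform table gave 1 symbol for 9304 of the rest, several for 195 and none for 5992. Of the single symbols, 9227 were updated through gene identifiers to RefSeq (Xenopus_laevis_v10.1, names only). After the dimmest 25% by mean log2 signal were dropped, 11618 remained and were fitted with limma 3.58.1 (R 4.3.3; two-sided moderated tests, mean-variance trend), with Benjamini-Hochberg adjustment. SEs and intervals come from that fit. Lists used the brightest probe set of each symbol. A fold is a ratio of geometric means, with arrays under 37.6 set to 37.6 where all arrays of a group lay below it.

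Members and lists were chosen with earlier results of these data known. Genes named in a list were those past the test and the 4 next by p, any fitted gene of the families, and the 3 most alike for each member. Sequence comparisons were not made here. Deviations from group means correlated at 0.407, 0.178 and 0.298 between same-numbered arrays (numbers 1, 2 and 3), so a blocked fit was run beside the main one. Untreated array 2 and treated array 3 correlated at 0.173, and untreated array 3 and treated array 2 at 0.147. The correlations thus mainly set arrays numbered 1 apart, and the labels do not say whether the numbers mark true pairs. Tested on simulated data for this comparison (11618 probe sets), the fit recovered 53% of 100 log2 changes of size 1 and 87% of 100 of size 2, and 7.3% of its calls were false. These rates hold for the simulated data, and whether they carry over to these arrays was not tested. Alternatives tried were median scaling, quantile normalization, offsets of 16 and 32, no filter or one of 50%, eBayes without trend, array weights, the replicate block, any probe set of a gene, and each array left out. For the marker lists, the block and leaving out arrays were added after seeing the data.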

Additional observations from a re-analysis of the deposited data

How the results depend on the processing

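The log2 differences of mecom.L, tfap2b.L and both pou3f4.L probe sets were below 0 under every alternative that gave a value. The offsets, which pull dim signals together, moved them most: with 32 added, mecom.L had -2.77, tfap2b.L -2.24 and pou3f4.L -1.43 (dimmer probe set) and -2.90 (brighter), and with 16 added mecom.L had -3.15 and the brighter pou3f4.L probe set -3.17. Without the dimmer 50% of probe sets, mecom.L and the dimmer pou3f4.L probe set were not fitted. Leaving out single arrays gave -0.13 to 0.45 for gata3.S. Of all fitted probe sets 160 passed, against 95 without trend, 657 with array weights, 733 with the replicate block, and 60 to 187 with 1 array left out (60 without untreated array 2, 74 without untreated array 3, 71 and 69 without treated arrays 2 and 3). In the lists, array weights and the replicate block each gave 9 in place of 4 regulators, 4 in place of 1 effector and 4 in place of 1 family gene, and 2 family genes passed without untreated array 1 (1 to 2 over the arrays left out). Without the dimmer 50%, where fxyd2.S was no longer fitted, 0 of 24 effectors passed the limma test and 5 had an unadjusted p under 0.05. Apart from these added calls, the replicate block changed no call in the 3 lists. The cause of the other shifts was not tested. lhx1.L, dll1.L, mycn.S, fxyd2.S and gata5.S kept their calls under each alternative that fitted them, and osr1.L in 11 of 15. Probe sets near the control level, as for mecom.L in treated explants, limit what can be said of the size of a difference.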
